A study of Mus musculus with 8 samples.

Results

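The 8 genes described here encode the NR4A orphan nuclear receptors (Nr4a1, Nr4a2 and Nr4a3), the EGR zinc finger factors (Egr1, Egr2 and Egr3), the transcription factor IRF4 (Irf4) and the signalling inhibitor Sprouty1 (Spry1). They were found by symbol, with 1 row each among 19673 listed genes, and all 8 were abundant enough to be tested. They are known as genes that T cells switch on after a signal through the T cell receptor. The tested cells came from tumours in hosts labelled as KO for Mtdh (metadherin), and the cells they were set against came from tumours in WT hosts, with 4 biological replicates each, numbered here as libraries 1 to 4. In both groups the tumours were grown from injected Py8119 cells, a mouse mammary tumour line, and live cells positive for CD45, CD3e and CD8 were sorted from the dissociated tumours for bulk RNA sequencing. Both groups thus carried the same tumour line, and the genotype is that of the host. The type of Mtdh allele and the strain, sex and age of the hosts are not given in the sources used here.

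A T cell receptor that meets its antigen sends calcium through calcineurin to NFAT, and sends a separate signal through RAS and ERK. NFAT induces Egr2, Egr3 and the Nr4a genes, and ERK, acting through serum response factor, induces Egr1. Nr4a1 is widely read as an immediate record of receptor signalling, and Irf4 as a record of its strength. With repeated stimulation, NR4A factors hold T cells in the hyporesponsive state called exhaustion in tumours, EGR2 and EGR3 drive anergy, and Sprouty1 dampens ERK. Macrophages, dendritic cells and other cells also induce Nr4a and Egr genes when stimulated, so these transcripts do not belong to T cells alone.

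The promoters of the NR4A genes are shown because the results below compare these 3 genes with each other. Of the 8 genes, 6 had a promoter in the RefSeq table of GRCm38.p6, and the 250 bases before the start are printed. Capitals mark TGACG on either strand (CGTCA on the other), which is part of the cyclic AMP response element that CREB binds.
Nr4a1, chr15:101266596-101266845, plus strand: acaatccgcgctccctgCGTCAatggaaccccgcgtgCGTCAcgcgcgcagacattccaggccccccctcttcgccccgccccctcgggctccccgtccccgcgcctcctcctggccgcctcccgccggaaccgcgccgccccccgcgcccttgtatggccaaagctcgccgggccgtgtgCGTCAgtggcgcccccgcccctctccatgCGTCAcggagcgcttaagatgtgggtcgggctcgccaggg
Nr4a2, chr2:57124004-57124253, minus strand: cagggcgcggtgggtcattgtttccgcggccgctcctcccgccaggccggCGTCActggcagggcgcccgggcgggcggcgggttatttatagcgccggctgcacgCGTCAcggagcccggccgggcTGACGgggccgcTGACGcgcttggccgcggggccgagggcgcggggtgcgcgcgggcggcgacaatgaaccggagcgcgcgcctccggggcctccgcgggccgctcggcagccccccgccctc
Nr4a3, chr4:48045055-48045304, plus strand: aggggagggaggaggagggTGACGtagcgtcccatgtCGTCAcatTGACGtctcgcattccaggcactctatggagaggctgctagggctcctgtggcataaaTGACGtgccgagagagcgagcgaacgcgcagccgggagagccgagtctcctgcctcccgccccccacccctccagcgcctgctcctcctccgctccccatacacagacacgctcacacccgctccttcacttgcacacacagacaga
Each of the 3 windows held 4 copies of TGACG. The copies lay 233, 213, 69 and 40 bases before the start in Nr4a1, 200, 144, 123 and 111 bases before it in Nr4a2, and 231, 213, 205 and 147 bases before it in Nr4a3. TGACG stood in 17.8% of 32851 mouse promoter windows of this length, and 45 windows (0.137%) held 4 or more copies. This motif was chosen after the sequences had been seen.

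Egr2 is shown for its CArG box, the element that serum response factor binds, which is in capitals.
Egr2, chr10:67537619-67537868, plus strand: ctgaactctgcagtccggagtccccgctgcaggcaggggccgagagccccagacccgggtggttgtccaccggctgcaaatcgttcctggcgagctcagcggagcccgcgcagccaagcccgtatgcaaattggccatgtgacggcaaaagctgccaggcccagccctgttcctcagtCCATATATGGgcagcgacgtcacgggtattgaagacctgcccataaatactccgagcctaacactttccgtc
The box began 72 bases before this start, and 4 of the 5 Egr2 starts in the table had a CArG box in their window, against 1.47% of all windows. The windows of these starts overlap in part, so they are not separate finds. The Egr2 window printed here also held 2 copies of TGACG, 111 and 55 bases before the start, left in lower case. The windows of Irf4 and Spry1 held no TGACG. The windows of Nr4a1, Nr4a2, Nr4a3, Irf4 and Spry1 held none of the full cyclic AMP response element TGACGTCA, the AP-1 motif TGANTCA, the CArG box, the EGR motif GCGTGGGCG, the NR4A motif AAAGGTCA or the NFAT motif GGAAAA, searched on both strands. These stood in 1.55%, 6.75%, 1.47%, 0.536%, 1.34% and 20.4% of all windows. A match describes letters and not a bound site, and their absence holds for these windows only.

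Mtdh itself was measured at 5118, 4622, 2538 and 3341 in KO libraries 1 to 4, against 9324, 12745, 6407 and 7974 in WT libraries 1 to 4, in units of the authors' normalized value. Every KO library lay below every WT library, the direction that the labels give (log2 fold change -1.23, SE 0.25, limma adjusted p = 0.0400). KO libraries averaged 0.428 of the WT mean, so a good part of the signal remained, and its source was not tested. The call ended without KO library 2 (adjusted p = 0.0560), 3 (0.0673) or 4 (0.193) or WT library 1 (0.241) or 2 (0.168), and with a minimum mean of 50 (0.0945), while the sign held in all 8 omissions. Each library held an estimated 16400000 to 29600000 reads. From the share of low genes that went undetected, 1 starting cDNA fragment was worth an estimated 38.1 to 143 in KO libraries and 25.5 to 64.7 in WT libraries. Cd8a was present in every library (7561 to 13355 in KO, 1565 to 6545 in WT), yet so were transcripts of cells outside the gate, such as the macrophage lysozyme gene Lyz2 (75242 to 186897 in KO, 130076 to 211543 in WT). Markers of other types were mixed. Foxp3 was at 0 in 3 KO and 3 WT libraries, and S100a8 in 3 KO and 4 WT libraries. Others of the same lists were at 0 in no library, such as Ikzf2 (mean 3411), Il2ra (500), Csf3r (258) and Kit (324). The same held for the B cell gene Ighm (843) and the fibroblast gene Col3a1 (4237).

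The comparison asks how these activation genes differed in the sorted cells when the host was KO for Mtdh. Nr4a3 was fitted about 3-fold higher in cells from KO hosts. It was the 1 gene of the 8 that passed the test over all genes, though its call ended in some library omissions and alternative settings. Nr4a2 and Irf4 had mean differences of a like size or larger, 2.47-fold and 3.57-fold, with more spread, and did not pass. Nr4a1, Egr3 and Spry1 had similar means in both groups, with intervals that leave room for a moderate change either way. Egr1 was the 1 gene of the 8 with a negative difference, and Egr2 a positive one, neither past the test. Because RNA was pooled from many cells, more cells with a transcript and more of it per cell cannot be told apart, and neither can its source among the cell types present.

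**Figure D1:**
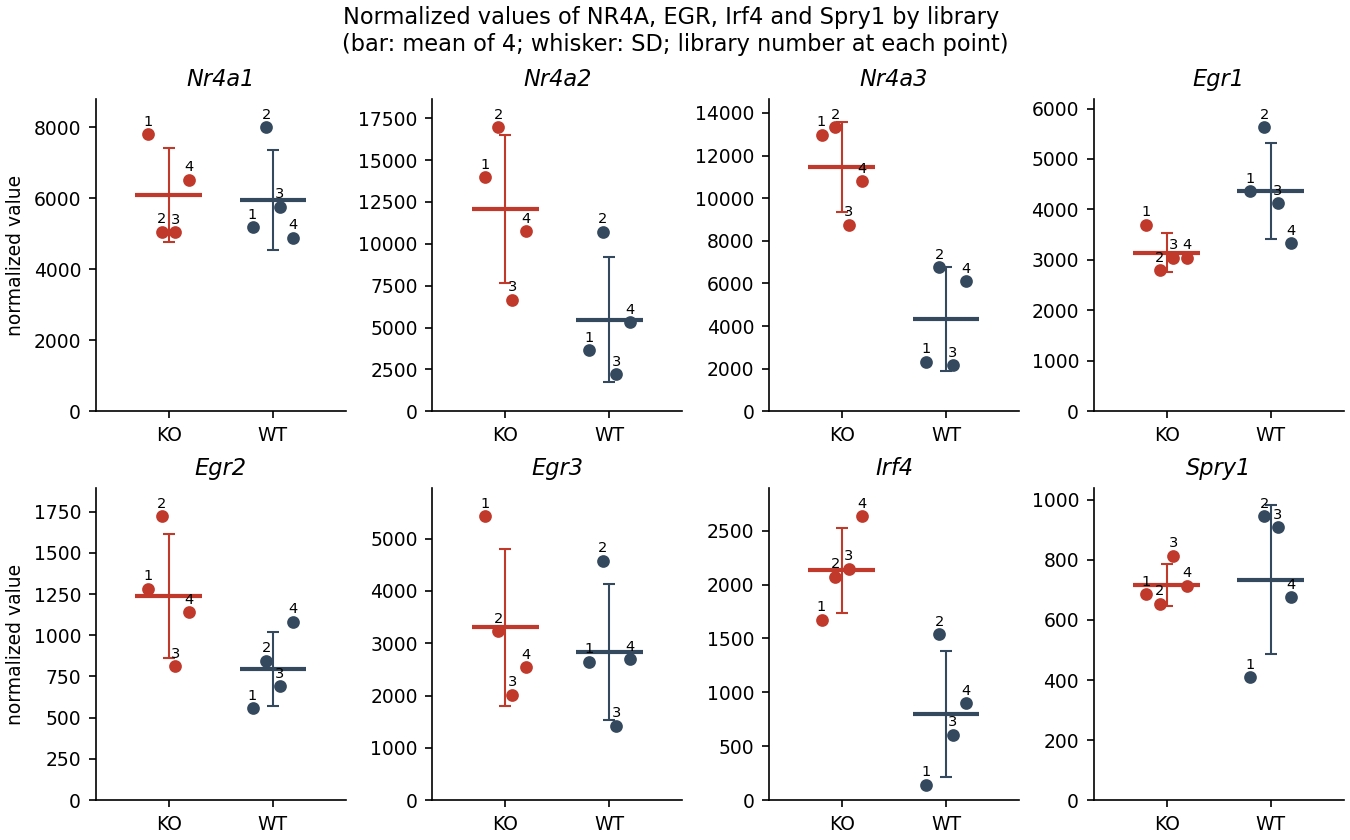
Normalized value (vertical axes, each from 0) of each of the 8 genes in 4 KO and 4 WT libraries, with the library number at each point, the mean as a bar and the SD as a whisker. For Nr4a3 and Irf4 every KO point lies above every WT point, while the groups overlap for the other 6 genes.

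Nr4a3 (ENSMUSG00000028341, chromosome 4, 48045153 to 48086447 of mm39, plus strand) encodes NOR1, a receptor with no known ligand. Its normalized value was 12976, 13329, 8760 and 10793 in KO libraries 1 to 4, against 2320, 6751, 2173 and 6113 in WT libraries 1 to 4. All KO libraries were above all WT libraries, and the WT libraries fell into a low pair (1 and 3) and a higher pair (2 and 4). Mean values were 11465 ± 2123 in KO and 4339 ± 2431 in WT libraries (SD over 4). The fitted change was 2.98-fold (log2 fold change 1.57, SE 0.31, 95% interval 0.93 to 2.22, limma adjusted p = 0.0322, unadjusted p = 5.99e-05), which ranked 30 among all genes by p. Its values rested on an estimated 37.3 fragments or more, the fewest being in WT library 1. The call ended when KO library 1 (adjusted p = 0.110), 2 (0.135) or 4 (0.105) or WT library 1 (0.258) or 3 (0.0984) was left out, while the log2 fold change stayed within 1.31 to 1.85 over the 8 omissions. It ended also with a minimum mean of 50 (0.109), with robust variance estimates (0.241), with a replicate block (0.0933) and with values scaled on CD3 genes (log2 fold change 1.12, adjusted p = 0.9999). With values scaled on Cd3e and Cd8a, a choice made after the data were seen, the Nr4a3 difference was 0.35 (adjusted p = 0.637), where the median of all genes moved to -1.35.

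Nr4a2 (ENSMUSG00000026826, chromosome 2, 56996842 to 57014015, minus strand) encodes NURR1, best known from dopamine neurons. It had 13984, 16964, 6670 and 10759 in KO libraries 1 to 4, against 3638, 10732, 2209 and 5313 in WT libraries 1 to 4. The groups overlapped only through WT library 2, which lay above KO library 3. Its KO libraries averaged 12094 ± 4416 and its WT libraries 5473 ± 3728 (SD over 4), a fitted 2.47-fold difference that did not pass (log2 fold change 1.30, SE 0.36, 95% interval 0.56 to 2.05, limma adjusted p = 0.237, unadjusted p = 0.00159). Without WT library 2 the log2 fold change was 1.71 and passed (adjusted p = 0.0266), and over the other omissions it ranged down to 0.95. Scaled on Cd3e and Cd8a it was 0.08.

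Nr4a1 (ENSMUSG00000023034, chromosome 15, 101152150 to 101172676, plus strand) encodes NUR77, the receptor whose reporter mice are used to read out T cell receptor signals. It had 7801, 5059, 5042 and 6525 in KO libraries 1 to 4, against 5182, 8005, 5764 and 4889 in WT libraries 1 to 4. The highest and the lowest of the 8 values were both from WT libraries. Mean values were 6107 ± 1326 in KO and 5960 ± 1411 in WT libraries (SD over 4). On the log2 scale KO differed from WT by 0.04 (SE 0.22, limma adjusted p = 0.984), and the 95% interval of -0.42 to 0.49 ends below the fitted differences of Nr4a2 and Nr4a3. Its sign turned in 4 of the 8 omissions (range -0.09 to 0.19) and under 4 of the scalings tried.

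**Figure D2:**
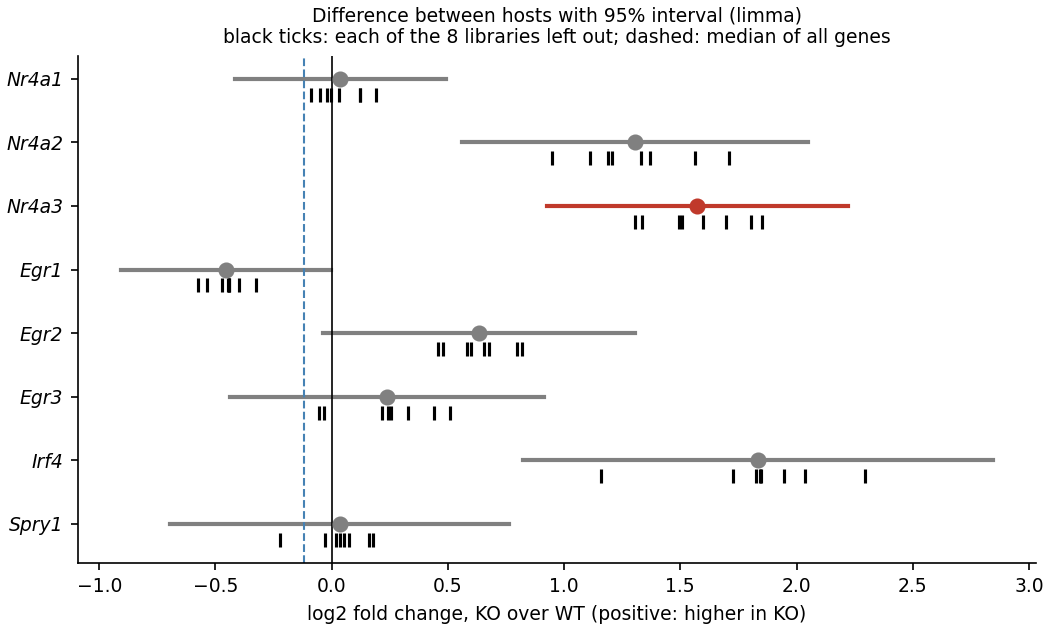
Fitted log2 fold change, KO over WT (horizontal axis), of the 8 genes with the 95% interval from limma as a line. Black ticks give the value with each of the 8 libraries left out, and only Nr4a3 (1.57, red) has an adjusted p under 0.05.

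The make-up of the NR4A family is given next. To compare levels between genes, values were divided by the merged exon length of the reference annotation, 3509 bases for Nr4a1, 4059 for Nr4a2 and 5987 for Nr4a3. Nr4a3 made up 27.7%, 28.4%, 32.2% and 28.6% of the summed NR4A level per kilobase in KO libraries 1 to 4, against 14.0%, 18.6%, 14.2% and 27.4% in WT libraries 1 to 4. Its share was thus higher in each KO library, though WT library 4 came within a small step of the lowest KO value. Nr4a1 made up 28.4%, 18.4%, 31.6% and 29.5% in KO libraries 1 to 4, against 53.5%, 37.7%, 64.4% and 37.4% in WT libraries 1 to 4. Nr4a1 was the largest of the 3 shares in WT libraries 1, 3 and 4 and in none of the KO libraries. Nr4a2 held 43.8% ± 7.09 of the sum in KO libraries and 33.2% ± 9.22 in WT libraries (SD over 4), with overlap.

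**Figure D3:**
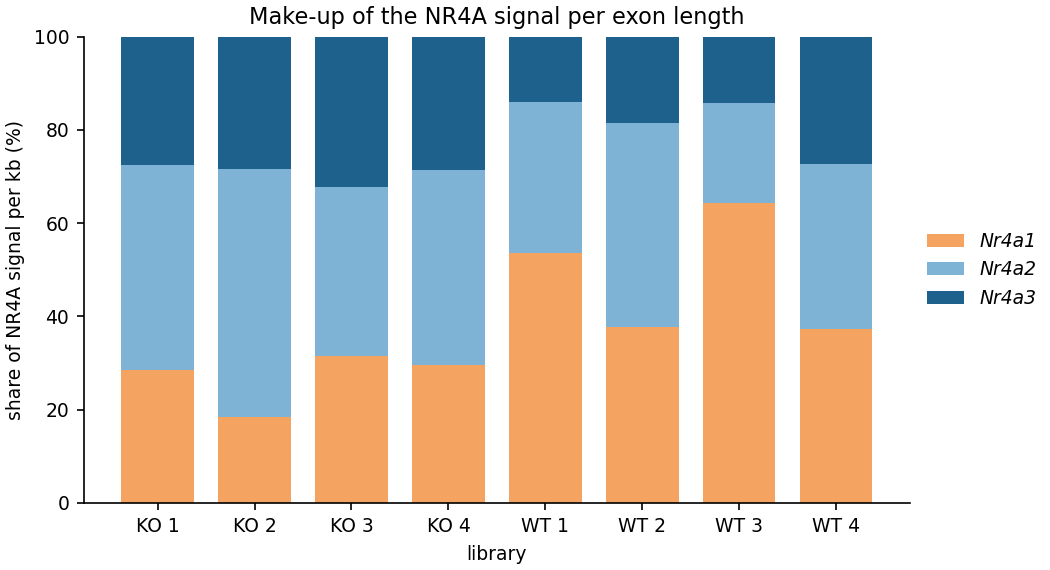
Share of Nr4a1, Nr4a2 and Nr4a3 in their summed level per kilobase of exon (vertical axis, percent) for each of 4 KO and 4 WT libraries. Nr4a1 averages 27.0% in KO and 48.3% in WT libraries, and Nr4a3 29.2% in KO and 18.6% in WT.

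Ratios within a library do not depend on how libraries were scaled, and 6 ratios within the NR4A and EGR families were tested after their values had been seen. The ratio of Nr4a3 to Nr4a1 was 1.66, 2.63, 1.74 and 1.65 in KO libraries 1 to 4, against 0.448, 0.843, 0.377 and 1.25 in WT libraries 1 to 4, in normalized values. No WT library reached the KO range. The mean log2 ratio was 1.54 higher in KO, or 2.90-fold (exact two-sided permutation p = 0.0286, the smallest that 70 arrangements allow, and 0.114 adjusted over the 6 ratios), so it did not pass the adjustment. Without any 1 of the KO libraries the exact permutation p was 0.0571, with differences of 1.38 to 1.60, and without any 1 of the WT libraries it was 0.0286, with differences of 1.28 to 1.85. The ratio of Nr4a2 to Nr4a1 was 1.79, 3.35, 1.32 and 1.65 in KO libraries 1 to 4, against 0.702, 1.34, 0.383 and 1.09 in WT libraries 1 to 4. Only KO library 3 lay below a WT library, library 2, and the log2 difference was 1.27 (exact two-sided permutation p = 0.0571, adjusted 0.114; 0.0286 unadjusted without WT library 2). Nr4a3 and Nr4a2 kept closer to each other, with a log2 difference of 0.27 in their ratio (exact two-sided permutation p = 0.314, adjusted 0.314).

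Among the EGR genes the differences between hosts were smaller and of mixed sign. Egr1 (ENSMUSG00000038418, chromosome 18, plus strand) is the ERK-induced member of the family. It had 3697, 2794, 3042 and 3046 in KO libraries 1 to 4, against 4368, 5629, 4131 and 3326 in WT libraries 1 to 4. Only KO library 1 lay above a WT library, library 4. Its KO libraries averaged 3145 ± 387 and its WT libraries 4364 ± 954 (SD over 4). On the log2 scale KO differed from WT by -0.45 (SE 0.22, 95% interval -0.90 to -0.0048; limma adjusted p = 0.742, unadjusted p = 0.0478). Scaled on Cd3e and Cd8a, Egr1 was at -1.68 and passed (adjusted p = 0.0450), as did 576 genes with lower values on that scale.

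Egr2 (ENSMUSG00000037868, chromosome 10, 67371305 to 67378018, plus strand) is an NFAT-induced factor of anergy and exhaustion. It had 1283, 1722, 813 and 1138 in KO libraries 1 to 4, against 558, 845, 690 and 1083 in WT libraries 1 to 4. KO library 3 lay below WT libraries 2 and 4, and the other KO libraries lay above all WT values. Mean values were 1239 ± 377 in KO and 794 ± 225 in WT libraries (SD over 4). On the log2 scale KO differed from WT by 0.63 (SE 0.32, 95% interval -0.04 to 1.30; limma adjusted p = 0.764). Its sign turned only on the Cd3e and Cd8a scale (-0.59), and its lowest value rested on an estimated 8.97 fragments.

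Egr3 (ENSMUSG00000033730, chromosome 14, 70314652 to 70320063, plus strand) shares the anergy role of Egr2. It had 5427, 3230, 2018 and 2542 in KO libraries 1 to 4, against 2646, 4580, 1423 and 2699 in WT libraries 1 to 4. The groups ran through each other, with the highest value in KO library 1 and the lowest in WT library 3. Its KO libraries averaged 3304 ± 1499 and its WT libraries 2837 ± 1303 (SD over 4). On the log2 scale KO differed from WT by 0.24 (SE 0.32, 95% interval -0.44 to 0.91; limma adjusted p = 0.889). Its sign turned when KO library 1 (-0.03) or WT library 3 (-0.05) was left out, and on both T cell scales.

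Within the EGR family the ratio of Egr2 to Egr1 was 0.347, 0.616, 0.267 and 0.374 in KO libraries 1 to 4, against 0.128, 0.150, 0.167 and 0.325 in WT libraries 1 to 4. Only WT library 4 lay above a KO library, library 3. The log2 difference was 1.09, or 2.13-fold (exact two-sided permutation p = 0.0571, adjusted over the 6 ratios 0.114; 0.0286 unadjusted without WT library 4). The ratio of Egr3 to Egr1 differed by 0.69 (exact two-sided permutation p = 0.114, adjusted 0.171) and that of Egr2 to Egr3 by 0.40 (exact two-sided permutation p = 0.286, adjusted 0.314).

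Irf4 (ENSMUSG00000021356, chromosome 13, 30933209 to 30950959, plus strand) encodes a factor that scales effector differentiation with receptor signal strength and that also serves B cells, dendritic cells and macrophages. It had 1674, 2074, 2148 and 2634 in KO libraries 1 to 4, against 143, 1538, 607 and 900 in WT libraries 1 to 4. Every KO library lay above every WT library, with a narrow gap between KO library 1 and WT library 2. Mean values were 2133 ± 394 in KO and 797 ± 584 in WT libraries (SD over 4), the largest fitted difference of the 8 genes at 3.57-fold (log2 fold change 1.83, SE 0.48, 95% interval 0.83 to 2.84), which did not pass (limma adjusted p = 0.201, unadjusted p = 0.00115). The value in WT library 1 rested on an estimated 2.30 fragments. Without that library the log2 fold change was 1.16, and without WT library 2 it was 2.30, with no pass in any omission.

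Spry1 (ENSMUSG00000037211, chromosome 3, 37694096 to 37698747, plus strand) is itself induced by ERK signalling and feeds back on it. It had 686, 654, 814 and 714 in KO libraries 1 to 4, against 409, 945, 908 and 675 in WT libraries 1 to 4. The KO values lay inside the WT range. Its KO libraries averaged 717 ± 69.4 and its WT libraries 734 ± 247 (SD over 4). On the log2 scale KO differed from WT by 0.03 (SE 0.35, 95% interval -0.70 to 0.76; limma adjusted p = 0.991). The mean of the log2 values is slightly higher in KO and the mean of the values slightly lower, and the sign of the log2 difference turned without KO library 3 (-0.03) or WT library 1 (-0.22).

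Among the 8 genes, 1 was called higher in KO and 0 lower by limma, against 34 of 16120 genes (0.211%) higher and 4 (0.0248%) lower. At an unadjusted limma p under 0.05, 4 of the 8 stood out (Nr4a2, Nr4a3 and Irf4 higher in KO, Egr1 lower). Over all genes 1080 of 16120 did, 518 higher and 562 lower. Every KO library exceeded every WT library for 2 of the 8, Nr4a3 and Irf4, against 325 genes (2.02%), and the reverse held for 0 of the 8, against 337 genes (2.09%). Differences were positive for 7 of the 8, against 43.4% of all genes, and the median was 0.44 against -0.12. With 8 members chosen for a shared role these counts describe the set and test nothing.

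Per kilobase of exon, Nr4a2 had the highest level of the 8 genes in KO libraries at 2980 ± 1088, followed by Nr4a3 at 1915 ± 355 and Nr4a1 at 1740 ± 378 (SD, n = 4). The ranges of these 3, mean plus or minus 1 SD, overlapped. Egr3 (750 ± 340) and Egr1 (701 ± 86.2) came next and overlapped, and Irf4 (435 ± 80.3), Egr2 (365 ± 111) and Spry1 (247 ± 23.9) followed, where each such range overlapped the next. In WT libraries Nr4a1 led at 1699 ± 402, ahead of Nr4a2 at 1348 ± 919, Egr1 at 973 ± 213 and Nr4a3 at 725 ± 406 (SD, n = 4), and each of these overlapped the next. Egr3 (644 ± 296), Spry1 (253 ± 85.2), Egr2 (234 ± 66.3) and Irf4 (163 ± 119) closed the WT order, where the step from Egr3 to Spry1 was the 1 step that exceeded the SDs. By mean, Irf4 thus stood sixth in KO libraries and last in WT libraries, and Nr4a3 was ahead of Nr4a1 in KO and behind it in WT. Nr4a3 led Nr4a1 in KO libraries 2 (2226 against 1442) and 3 (1463 against 1437). It was just behind Nr4a1 in KO libraries 1 (2167 against 2223) and 4 (1803 against 1860).

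Single libraries shaped these values, and the same libraries stood out in CD8 T cell markers and in markers of other cell types. WT library 2 had the highest WT value of Nr4a1, Nr4a2, Nr4a3, Egr1, Egr3, Irf4 and Spry1. Its summed CD8 T cell markers were at the same time the lowest of all libraries, at 4943, where WT libraries 1, 3 and 4 held 13890 to 19876. In fibroblast (21385), tumour and epithelial (2188), endothelial (1872) and dendritic cell (30636) markers WT library 2 had the highest WT sum. Its sums of CD4 and regulatory T cell, B and plasma cell, and neutrophil and mast cell markers were the lowest of all libraries. KO library 3 had the highest CD8 T cell sum, 33663, and the lowest KO value of Nr4a1, Nr4a2, Nr4a3, Egr2 and Egr3. Its macrophage and monocyte sum, 109090, was the lowest of all libraries. Cd3e and Cd8a, used for the T cell scale, differed by 1.31 (SE 0.31, limma adjusted p = 0.116) and 1.15 (SE 0.34, adjusted p = 0.327) between KO and WT.

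Across groups, CD8 T cell markers summed to 14302 to 33663 in KO and 4943 to 19876 in WT, with 10 of 11 genes positive and 0 called. Macrophage and monocyte markers summed to 109090 to 244630 in KO and 181730 to 287200 in WT, with 1 of 12 genes positive and 0 called. Of these, Mrc1 was lower in KO without overlap (6982 to 12364 in KO, 15259 to 19912 in WT). Dendritic cell markers summed to 40624 to 96079 in KO and 16037 to 30636 in WT, with 7 of 10 tested genes positive and 2 called, H2-Aa and Cd74. That sum is mostly H2-Aa and Cd74, MHC class II genes that macrophages and B cells also express. Of the other genes in the list, Flt3 and Clec9a were at 0 in KO library 2 but at 390 and 468 in KO library 1. Xcr1 (425) and Ccr7 (1220) were present in KO library 2. Ccr7 did not overlap between groups (668 to 2244 in KO, 261 to 615 in WT, limma adjusted p = 0.463). Fscn1 (-0.58), Zbtb46 (-0.72) and Ccl22 (-0.66) had negative differences. Fibroblast markers summed to 3945 to 22751 in KO and 8868 to 21385 in WT, with 0 of 9 called. CD4 and regulatory T cell markers summed to 4758 to 7048 in KO and 2040 to 2942 in WT, with 2 of 4 tested genes called, Il2ra and Ikzf2, both of which activated CD8 T cells also express. B and plasma cell markers (median log2 fold change 1.13, 4 of 5 positive), NK and gamma-delta T cell markers (1.08, 5 of 6) and the 2 neutrophil and mast cell markers tested (1.72) had 0 calls, as did tumour and epithelial markers (0.32, 3 of 4) and endothelial markers (-1.50, 0 of 4). Yet the B cell genes Igkc (297 to 586 in KO, 56.5 to 114 in WT) and Pax5 (159 to 301, 45.4 to 87.5) did not overlap. Nor did Kit (399 to 972 in KO, 40.7 to 79.6 in WT). Over all genes 2.02% had every KO library above every WT library, and 2.09% had every KO library below. The WT values of Igkc, Pax5 and Kit were low, with 1 fragment worth 25.5 to 64.7 in WT libraries. The part of these cells in the differences of Nr4a3, Nr4a2 and Irf4 was not tested.

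**Figure D4:**
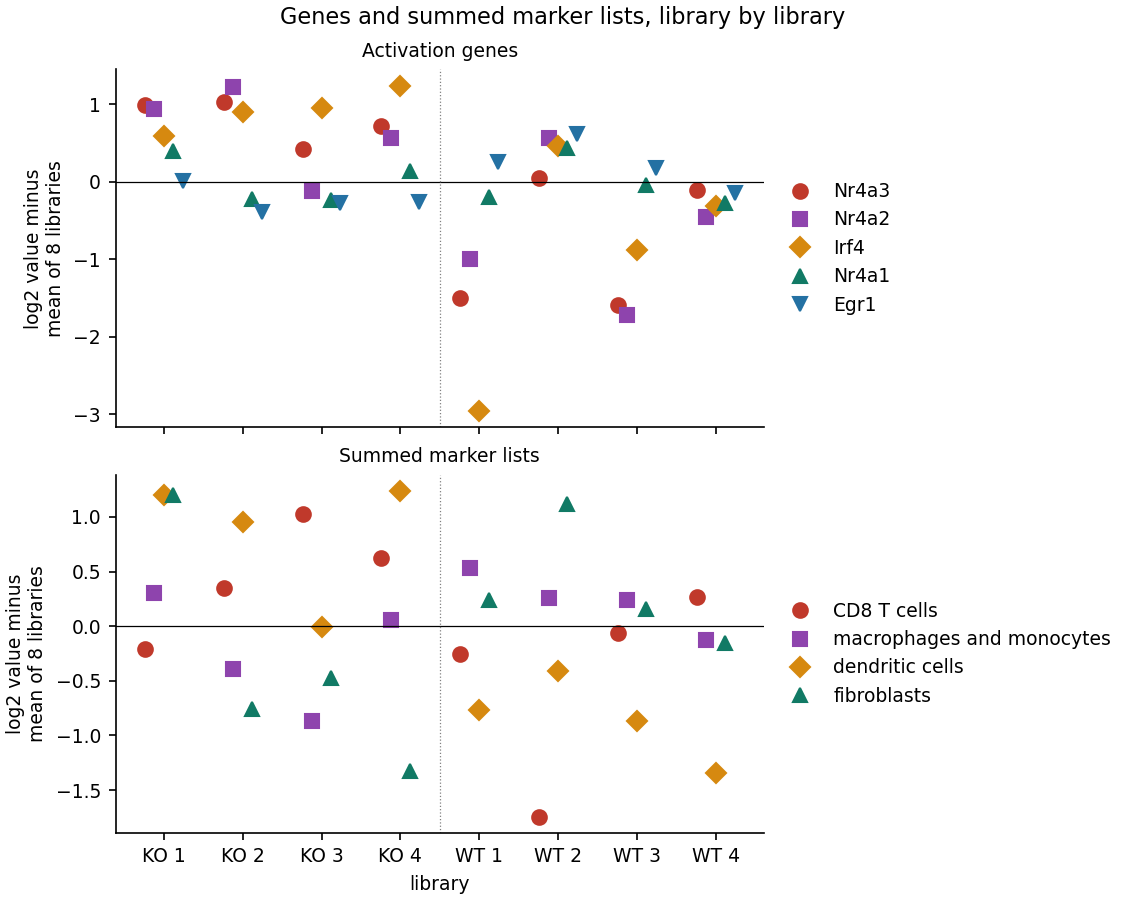
Log2 value minus its mean over the 8 libraries (vertical axes) for 5 of the genes, above, and for summed marker lists of 4 cell types, below, with KO libraries on the left. Irf4 is lowest in WT library 1, and CD8 T cell markers are lowest in WT library 2, where Nr4a2 and Irf4 are highest among WT libraries.

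Immediate early genes also respond to the digestion of tissue into single cells, so a list of 16 such genes was set beside the results. It summed to 115240 to 148450 in KO and 131040 to 146830 in WT, with 5 of 16 differences positive, a median of -0.19 and 0 calls. Every KO library lay below every WT library for Jun of this list (3437 to 5912 in KO, 6203 to 6762 in WT). Over all genes that held for 2.09%. Jun differed by -0.48 (limma adjusted p = 0.730) and Fos by -0.55 (limma adjusted p = 0.649), neither past the test. The most abundant gene of the early activation list, the AP-1 subunit Fosb, was at 45422, 59028, 30873 and 45388 in KO libraries 1 to 4, against 35114, 45817, 29341 and 32434 in WT libraries 1 to 4. Its difference did not pass (log2 fold change 0.32, SE 0.23, limma adjusted p = 0.783).

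Values of the 8 genes varied together in part, as Pearson r of log2 values over 8 libraries describes. Nr4a2 and Nr4a3 had r = 0.93, or 0.88 for deviations from the group means. Nr4a3 had r = 0.86 with both Egr2 (0.75 within groups) and Irf4 (0.70 within groups), whereas with Egr1 it had -0.54 (0.13 within groups). Nr4a1 and Egr1 had r = 0.54, or 0.86 within groups, and Irf4 and Spry1 0.64, or 0.85 within groups. The libraries share 1 kind of sort and normalization, and the values have no test.

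By the same measure, among 10745 genes compared, Nr4a3 was most like Nfil3 (r = 0.977), Fam167a (0.968) and Fosl2 (0.968) over the 8 libraries. Nr4a2 was most like Cnot6 (0.975), Slc30a9 (0.974) and Creb5 (0.969), and Nr4a1 most like Sap130 (0.959), Smap1 (0.938) and Arpc1a (0.936). Irf4 was most like Gpm6b (0.975), Itga1 (0.974) and Klri2 (0.973). For Egr1 the nearest were Rttn (0.972), Lix1l (0.971) and Rab18 (0.969), for Egr2 Ppp1r15b (0.972), Got1 (0.961) and Tec (0.956), for Egr3 Mettl5 (0.971), Eaf1 (0.940) and Rps6kb1 (0.933), and for Spry1 Dhx32 (0.965), Cilp (0.939) and Ggnbp2 (0.926). None of the nearest genes was shared between 2 of the 8. With 10745 genes and 8 libraries, high values are common, and 10 to 65 genes passed an r of 0.9 with each of the 8.

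None of the signalling genes above the 8 passed, though the proximal ones leaned positive, beside a median of -0.12 over all genes. Of 11 proximal T cell receptor signalling genes 10 had positive differences, 0 were called and the median was 0.56, led by the kinase Lck (log2 fold change 0.74, SE 0.27, limma adjusted p = 0.618) and the kinase Prkcq (1.02, SE 0.47, adjusted p = 0.732). The sums of this list were 14934 to 33343 in KO and 7939 to 20827 in WT, lowest in WT library 2 and highest in KO library 3, as for the CD8 T cell markers. Of 10 genes of calcium entry, calcineurin and NFAT, 5 were positive with a median of 0.04 and 0 calls. The calcineurin subunits Ppp3ca (-0.40, adjusted p = 0.770) and Ppp3r1 (-0.02, adjusted p = 0.991) did not pass, and the calcium channel Orai1 was at 2.46 (SE 0.99, adjusted p = 0.679), or 1.21 without WT library 2, where its value of 4.73 is under 1 fragment.

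Among 15 kinases and factors of the ERK, SRF, MEF2 and CREB branch, 9 were positive, the median was 0.06 and 0 were called. Crem, which encodes activators and the inducible repressor ICER of the cyclic AMP pathway, had 7353, 2552, 4295 and 5317 in KO libraries 1 to 4, against 1253, 2108, 1369 and 2852 in WT libraries 1 to 4. Only KO library 2 fell below a WT library, library 4, and the difference of 1.34 (SE 0.31, limma adjusted p = 0.0922) did not pass, though it did without KO library 2 (0.0304) or WT library 4 (0.0166), with a pseudocount of 10 (0.0301) or 50 (0.0141) and with sample weights (0.00121). Mef2c (-0.50, adjusted p = 0.767) and Mef2a (-0.16, adjusted p = 0.893), factors that act with calcium signals on the Nr4a1 promoter, did not pass.

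Close relatives of the 8 genes had no call. Of 6 tested relatives 3 were positive and 0 were called, with Irf8, the nearest kin of Irf4, at 0.58 (adjusted p = 0.767), and the Sprouty-related ERK inhibitors Spred1 at -0.22 (adjusted p = 0.834) and Spred3 at -2.26 (SE 1.20, adjusted p = 0.770). Spred3 rested on a near absence in KO library 2, and without that library it was at -0.55. Of 6 tested partners and corepressors 2 were positive and 0 were called. The EGR corepressor Nab2, itself an EGR target, had 872, 746, 1082 and 840 in KO libraries 1 to 4, against 685, 704, 657 and 485 in WT libraries 1 to 4. Its groups did not overlap, yet the difference of 0.49 (SE 0.32) did not pass (limma adjusted p = 0.772), nor did those of its relative Nab1 (0.23, adjusted p = 0.834) and of the NR4A partner Rxrb (-1.13, adjusted p = 0.756).

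The calls in these pathways lay among the genes known downstream of, or induced beside, NR4A and EGR factors. These lists were chosen with earlier results of these data known, so where the calls fell tests nothing. Over all genes 34 of 16120 (0.211%) were called higher. Of 9 inhibitory receptors and factors tied to NR4A in exhausted CD8 T cells, 8 were positive with a median of 1.93, and 1 was called. Ctla4, an inhibitory receptor, had 1613, 1764, 1330 and 1574 in KO libraries 1 to 4, against 260, 124, 279 and 627 in WT libraries 1 to 4. It rose without overlap (log2 fold change 2.51, SE 0.42, limma adjusted p = 0.00870). Tox, the factor that fixes the exhausted state, was at 1.93 (SE 0.45, adjusted p = 0.0992), and the ectoenzyme Cd38 at 0.24 (adjusted p = 0.834). Of 11 tested genes of the EGR2 and EGR3 anergy programme, 8 were positive with a median of 0.25, and 1 was called, the costimulatory receptor Tnfrsf9 (2.26, SE 0.43, adjusted p = 0.0277), which also stood in the early activation list. The inhibitory receptor Lag3 was at 2.93 (SE 0.76, adjusted p = 0.175) and the ubiquitin ligase Itch at -0.02 (adjusted p = 0.992).

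Of 30 other early activation genes 21 were positive, the median was 0.29, 5 were called higher and 0 lower. Beside Tnfrsf9 these were Il2ra, the IL-2 receptor alpha chain (3.57, SE 0.62, limma adjusted p = 0.0127), the AP-1 subunit Fosl2 (1.32, SE 0.24, adjusted p = 0.0179), and the phosphatases Dusp4 (2.53, SE 0.42, adjusted p = 0.00877) and Dusp5 (1.61, SE 0.30, adjusted p = 0.0207), which switch off ERK. Fosl2 had 39088, 53090, 31622 and 40986 in KO libraries 1 to 4, against 12564, 20121, 11867 and 22839 in WT libraries 1 to 4. Like Nr4a3 it was lowest in KO library 3 within its group, and low in WT libraries 1 and 3. The WT values of Il2ra (24.6 to 123) were worth under 3 fragments in each library, so its fold is imprecise. Lag3 was also low in WT libraries (36.0 to 99.3), as was Ctla4 in WT library 2 (124), where 1 fragment was worth 64.7. Dusp4 (98.6) and Tnfrsf9 (160) were low in WT library 1, where 1 fragment was worth 62.2. The folds of these genes are imprecise too.

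Each of these 6 calls ended in 1 or more omissions of a library. With KO library 4 left out the calls of Ctla4 (0.0578), Il2ra (0.0922), Fosl2 (0.0922), Dusp4 (0.0721), Dusp5 (0.0577) and Tnfrsf9 (0.191) were lost. With KO library 1 left out, so were those of Il2ra (0.0736), Fosl2 (0.0580), Dusp5 (0.0736) and Tnfrsf9 (0.109). The omission of KO library 2 took away the call of Fosl2 (0.107), and that of WT library 1 the calls of Ctla4 (0.0509), Fosl2 (0.202), Dusp5 (0.123) and Tnfrsf9 (0.151). The calls of Dusp5 (0.0631) and Tnfrsf9 (0.0824) ended without WT library 2, and those of Fosl2 (0.0844), Dusp5 (0.0844) and Tnfrsf9 (0.0551) without WT library 3. All 6 calls ended also with a replicate block, with values scaled on CD3 genes and with values scaled on Cd3e and Cd8a. On the Cd3e and Cd8a scale the log2 fold changes were 1.28 for Ctla4 (adjusted p = 0.138), 2.34 for Il2ra (0.0726), 0.10 for Fosl2 (0.918), 1.30 for Dusp4 (0.159), 0.38 for Dusp5 (0.618) and 1.03 for Tnfrsf9 (0.226). A minimum mean of 50 ended the calls of Fosl2 (0.0608), Dusp5 (0.0525) and Tnfrsf9 (0.0775). Tox passed without WT library 4 (2.32, adjusted p = 0.00962), with a pseudocount of 10 (0.0243) or 50 (0.00881) and with sample weights (0.00627). Lag3 passed with sample weights (0.0198).

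**Figure D5:**
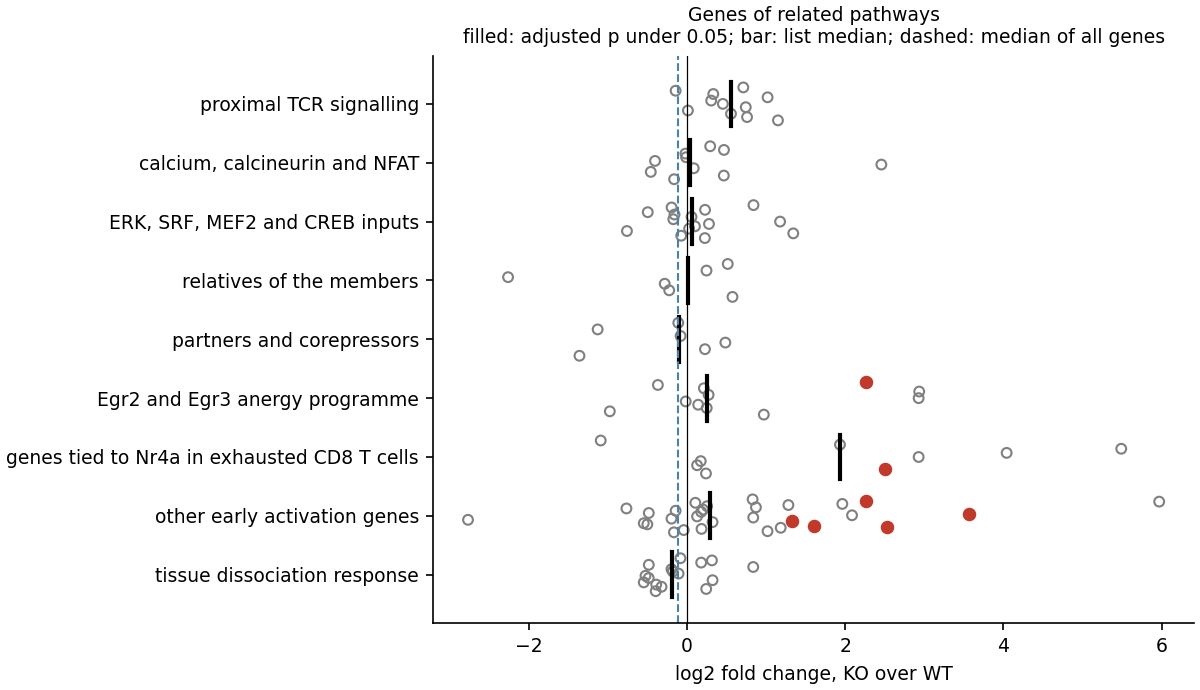
Fitted log2 fold change, KO over WT (horizontal axis), of the tested genes in 9 lists around the NR4A and EGR factors, with the list median as a bar and genes with an adjusted p under 0.05 filled. The median is 1.93 in the list tied to NR4A in exhausted cells and -0.12 over all genes. The lists were chosen with earlier results of these data known.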

How the data were processed

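Sorted tumour CD8 T cells from 4 KO and 4 WT hosts were measured by RNA sequencing after depletion of ribosomal RNA, per the labels' protocols. Tools listed there without a role, per the submitters' processing notes, are DESeq2, STAR 2.7.8a and Partek, with mm39 as the build, and strandedness is not given in the sources used here. Each deposited value is a signal for 1 gene in 1 library, made from counts that the authors normalized with DESeq2 according to the table's name. Low values were mostly multiples of 0.788 to 1.30, the worth of 1 read, and between 81.7% and 88.1% of those worth at most 500 reads were whole within 0.02 reads, so whole reads could not be restored and count models were left out. The fragments behind a library were estimated from the share of low genes left with under 3 reads, and since copies of a fragment are not independent no counting intervals are given.

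Values were used as log2(value + 1), a scale that understates changes of low genes. All 16120 genes that averaged 10 or more entered limma 3.58.1 in R 4.3.3 (eBayes with trend, two-sided, Benjamini-Hochberg, threshold 0.05), KO against WT without covariates. Promoters and exon lengths came from the reference of GRCm38, and positions of genes from the authors' table on mm39. The 8 genes and the lists were chosen with earlier results of these data known. Named beside them were, from each list, every gene past the threshold, the 2 lowest by p and the most abundant 1, and the 3 genes most like each of the 8 by Pearson r. The design states biological replicates. Alternatives covered the pseudocount, the minimum mean, scaling, a replicate block, weights, robust estimates and each library left out.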

Additional observations from a re-analysis of the deposited data

Results flagged for a closer look

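Within groups of 4 libraries, single values far from the other 3 were sought for the genes described, and 5 of 68 groups had one, where chance gives about 1 in 20. None was in the 8 activation genes. Itch in KO library 1 was at 2788, below 4028 to 4297 in the other KO libraries. Il2ra in KO library 1 was at 1282, above 762 to 816 in the other KO libraries, and in WT library 3 it was at 24.6, below 97.8 to 123 in the other WT libraries. Lck in WT library 2 was at 3132, below 6255 to 7092 in the other WT libraries, and Orai1 there was at 4.73, below 146 to 217. WT library 2 is also the library with the lowest summed CD8 T cell markers and the highest WT values of Nr4a2, Nr4a3 and Irf4.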

How the results depend on the processing

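Past the threshold were 38 genes and 1 of the 8, and for the 8 genes the fits with a pseudocount of 10, no minimum mean, TMM, quantile scaling or no small RNAs kept that count at 1. The numbers were 63 genes with a pseudocount of 10, 85 genes and 3 of the 8 with 50 (Nr4a2 1.29 and Irf4 1.71 passed), 15 and 0 with a minimum mean of 50 (Nr4a3 1.57, adjusted p = 0.109; Mtdh -1.23), 112 and 3 with sample weights (Nr4a2 1.56, Irf4 1.95; Spry1 turned to -0.048 and Ppp3r1 to 0.033), and 49 and 0 with robust estimates (Nr4a3 1.57). Quantile scaling turned Nr4a1 to -0.046, and leaving small RNAs out of the scale turned Nr4a1 to -0.011 and Spry1 to -0.015. Scaling on CD3 genes put the median of all genes at -0.57, beside -0.12 without it, and left 0 genes and 0 of the 8 past the threshold (Nr4a3 1.12, Mtdh -1.69), with Nr4a1 (-0.42), Egr3 (-0.22), Spry1 (-0.42), Nab1 (-0.23), Cd38 (-0.21) and Fosb (-0.13) turned. Cd3d was at 26.2 and 3.30 in KO libraries 1 and 2 and 1.89 in WT library 2, so Cd3e and Cd8a were tried after seeing the data. They moved the median to -1.35 and gave 578 genes, 2 higher and 576 lower against 34 and 4, with Egr1 past at -1.68 and Nr4a3 not at 0.35. There Nr4a1 (-1.19), Egr2 (-0.59), Egr3 (-0.99), Spry1 (-1.19), Lck (-0.48), Prkcq (-0.21), Irf8 (-0.65), Nab2 (-0.74), Nab1 (-1.0), Cd38 (-0.99) and Fosb (-0.90) turned. With a replicate block 0 genes and 0 of the 8 passed (Nr4a3 1.57, limma adjusted p = 0.0933, and Mtdh -1.23, limma adjusted p = 0.0627). Same-numbered libraries correlated by 0.000481 to 0.133 in their deviations, and differently numbered ones by -0.125 to 0.106. Not every library was closest to its own. Whether a shared number marks a shared batch cannot be told from these correlations. Omission of each library gave 7 to 70 genes and 0 to 2 of the 8, and log2 fold changes of -0.088 to 0.19 for Nr4a1, 0.95 to 1.71 for Nr4a2, 1.31 to 1.85 for Nr4a3, -0.054 to 0.51 for Egr3, -0.22 to 0.18 for Spry1, -1.38 to -1.04 for Mtdh, -0.088 to 0.13 for Itch, -0.29 to 0.050 for Mef2a, -0.094 to 0.12 for Ppp3r1 and -0.36 to 0.018 for Spred1. The log2 ratios ranged over 1.28 to 1.85 (Nr4a3 to Nr4a1), 0.92 to 1.52 (Nr4a2 to Nr4a1) and 0.86 to 1.38 (Egr2 to Egr1). The causes were not tested. Depth limits Irf4 and Spry1 most, with the fewest fragments at 2.30 in WT library 1 and 4.57 in KO library 2.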
